A study of Homo sapiens with 8 samples.

Results

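The EXT family consists of 5 glycosyltransferase genes, EXT1, EXT2, EXTL3, EXTL2 and EXTL1, and all 5 were found by symbol among the 15811 genes of the deposited expression table. Their RNA was measured in H9, a widely used line of human embryonic stem cells, with 4 libraries of the wild type (WT) and 4 of an EXT1-/- line that was derived from it by CRISPR/Cas9. Before collection all cells spent 28 h with CHIR-99021 at 6 µM, which blocks GSK3, raises β-catenin and starts mesendoderm differentiation. The WT cells carried no edit according to the labels, and 1 EXT1-/- line stood for the genotype. No uninduced library was analysed here. Nothing in the labels states that the replicates come from separate cultures, and the p-values therefore rest on a spread between libraries that may be technical.

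Heparan sulfate is a long sulfated sugar chain that is carried by proteoglycans at the cell surface and in the matrix, where it binds growth factors such as FGFs. EXT1 and EXT2 form a complex in the Golgi that lengthens the chain by adding glucuronic acid and N-acetylglucosamine in turn, and loss of one copy of either gene causes hereditary multiple osteochondromas. EXTL3 adds the first N-acetylglucosamine and so commits a linker on the core protein to heparan sulfate, EXTL2 can add a sugar to a phosphorylated linker that stops further growth, and EXTL1 has N-acetylglucosamine transferase activity on growing chains.

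Values are normalised read counts, the read counts per gene after the authors scaled the libraries to nearly equal size, and 1 CPM (a count scaled to a library total of 1e6) corresponds to 38.9 of them. They summed to between 37737058 and 40017763 per library. The libraries fell into a high and a low set absent from the labels, by the share of mitochondrial transcripts, which was 9.18 to 10.67% in WT replicate 1 and EXT1-/- replicates 1 and 4 (the high set), and 5.30 to 5.43% in the other 5 (the low set). The high set holds 1 WT library, and results are also given for the low set, with 3 WT and 2 EXT1-/- libraries, where the sets bear on them. The summed level of 5 pluripotency markers was 156624 to 161276 in WT and 110828 to 118709 in EXT1-/- libraries, and that of 5 primitive streak markers was 31086 to 35294 and 11256 to 17417. None of these 10 markers was at 0 in any library. In each list 4 of 5 were called lower in EXT1-/- cells (limma, adjusted p under 0.05), as were 16.8% of all genes. The others, LIN28A (log2 fold change 0.08) and GSC (-0.55), did not pass (adjusted p 0.220 and 0.0817, limma). Of 7 fibroblast markers only COL1A1, COL1A2 and THY1 were in the table, summing to 8039 to 8838 and 4819 to 5430. In bulk RNA, fewer cells of a type and less RNA per cell cannot be told apart, and the part of these differences in the results on the EXT family was not tested.

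Promoter sequences are shown for 3 members that contrast in level: EXT2 and EXTL2, which were well expressed and shared a pattern across libraries, and EXTL1, which was barely expressed. Each is a window of 300 bases, from 250 before to 50 after a transcription start annotated by RefSeq (GRCh38.p14), printed 5′ to 3′ on the gene's strand, with capitals marking GGGCGG on either strand, the GC box bound by SP family factors.
EXT2, chr11:44095947-44096246, plus strand: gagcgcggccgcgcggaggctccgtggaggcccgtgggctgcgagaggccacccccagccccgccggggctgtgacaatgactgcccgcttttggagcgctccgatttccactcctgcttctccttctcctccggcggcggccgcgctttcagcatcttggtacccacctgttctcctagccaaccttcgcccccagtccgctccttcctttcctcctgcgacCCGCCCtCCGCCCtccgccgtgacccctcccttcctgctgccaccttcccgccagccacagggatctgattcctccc
EXTL2, chr1:100894793-100895092, minus strand: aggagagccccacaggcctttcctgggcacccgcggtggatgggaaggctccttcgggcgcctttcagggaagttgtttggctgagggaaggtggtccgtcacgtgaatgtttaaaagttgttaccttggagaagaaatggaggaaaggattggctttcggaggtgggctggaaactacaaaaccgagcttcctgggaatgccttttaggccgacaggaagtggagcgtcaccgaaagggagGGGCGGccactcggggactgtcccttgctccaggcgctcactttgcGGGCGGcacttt
EXTL1, chr1:26021525-26021824, plus strand: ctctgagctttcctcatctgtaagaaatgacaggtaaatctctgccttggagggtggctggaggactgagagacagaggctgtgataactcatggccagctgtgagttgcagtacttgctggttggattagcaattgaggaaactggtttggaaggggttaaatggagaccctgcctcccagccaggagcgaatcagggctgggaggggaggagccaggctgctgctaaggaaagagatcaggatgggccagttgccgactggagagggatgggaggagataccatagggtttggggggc
The EXT2 window held 26 CpG dinucleotides and 2 GC boxes, the EXTL2 window 16 and 2, and the EXTL1 window 2 and 0. The ratio of observed to expected CpG was 0.797, 0.666 and 0.102, against a median of 0.579 over 35116 RefSeq windows of that length, of which 9.9% lay below EXTL1. A GC box was present in 45.0% of all windows. The TATAAA motif, searched on both strands, was in none of the 3 printed windows and in 11.5% of all, and CCAAT occurred once, in EXTL2 (34.6% of all). RefSeq lists 3 windows for EXT2, of which another lies a single base away and the third, which begins at 44095428, differs from the printed one: it held 24 CpG, 0 GC boxes and 1 TATAAA, with an observed to expected ratio of 1.01. The printed EXTL1 and EXT2 windows begin at 26021525 and 44095947, inside the genes, whose outermost starts in GENCODE are 26019884 and 44095549. These are descriptions of the letters in the windows, and binding was not measured.

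Of the 5 members, EXT1 was lower and EXTL3 and EXTL1 were higher in EXT1-/- cells when p-values from limma, adjusted over all genes by Benjamini-Hochberg, were held to 0.05, while EXT2 and EXTL2 did not pass. Among all genes 32.0% passed, 16.8% lower and 15.2% higher, so 3 calls in 5 genes is to be read against a background in which about 1 gene in 3 was called. The median log2 fold change of all genes was 0.01. In the authors' deposited table EXT1 alone passes an FDR of 0.05, as do 26.2% of all genes there: its FDR is 4.98e-10, against 0.0655 for EXTL3, 0.146 for EXTL1, 0.470 for EXTL2 and 0.645 for EXT2.

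**Figure D1:**
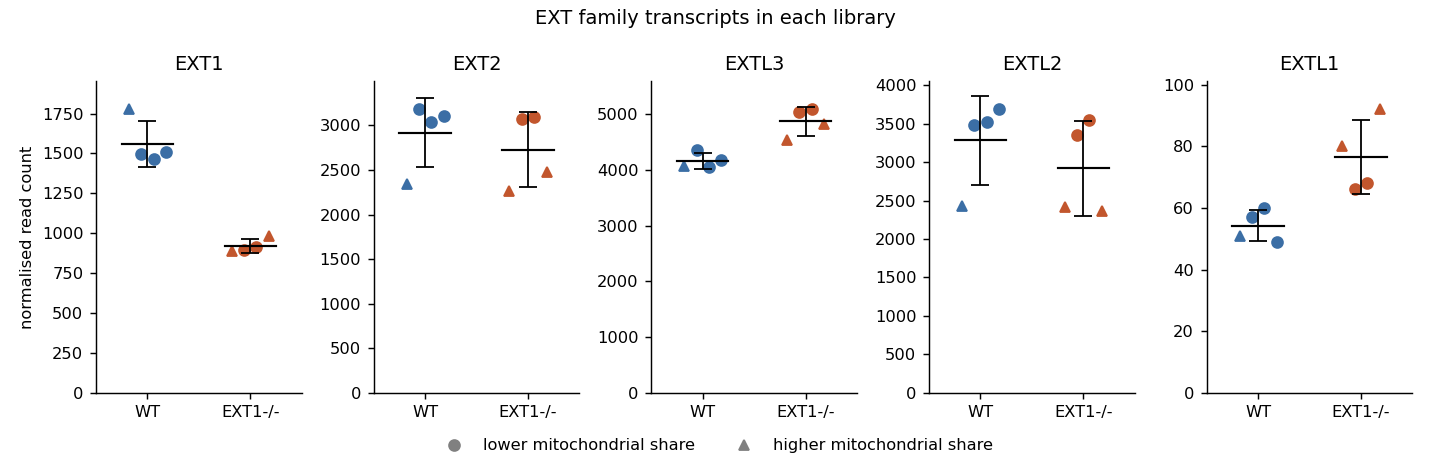
Normalised read count of each member (vertical axes from 0) in the 4 WT and 4 EXT1-/- libraries, with group mean and SD; triangles are the libraries of the high mitochondrial set and circles those of the low set. EXT1 separates by genotype (1464 to 1776 against 890 to 980), whereas EXT2 and EXTL2 separate by library set.

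EXT1 (ENSG00000182197; chromosome 8, 117794490 to 118111853, minus strand of GRCh38, GENCODE 29) is the gene that was edited. From replicate 1 to replicate 4 the WT libraries gave 1776, 1499, 1464 and 1508, and the EXT1-/- libraries 890, 894, 915 and 980. The groups were far apart: the highest EXT1-/- library lay below the lowest WT library, as for 17.2% of all genes. The EXT1-/- mean was 58.9% of the WT mean (919.8 ± 41.6 against 1562 ± 144, SD, n = 4 each), a log2 fold change of -0.76 with a 95% interval of -0.93 to -0.59 (adjusted p 9.20e-05, limma). The interval corresponds to 0.525 to 0.664 times the WT level, so a substantial part of the transcript remained. The table sums all transcripts of the gene, does not show which exon was edited, and says nothing of the protein. Among the 2658 genes called lower, 1018 (38.3%) had a larger fall than EXT1. The WT spread came mostly from WT replicate 1, which was 19.2% above the mean of the other 3, and within the low set the log2 fold change was -0.72 (adjusted p 1.70e-05).

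EXT2 (ENSG00000151348; chromosome 11, 44095549 to 44245429, plus strand), the partner of EXT1 in the polymerase, had counts of 2346, 3180, 3036 and 3108 in WT and 2263, 3074, 3096 and 2477 in EXT1-/- replicates 1 to 4. The groups overlapped almost completely, and the 3 lowest values belonged to the 3 libraries of the high set. The means were 2918 ± 386 and 2728 ± 422 (SD, n = 4 each), and the log2 fold change was -0.10 with a 95% interval of -0.40 to 0.20 (adjusted p 0.605, limma). With a model term for the library set the estimate was -0.0020 with an interval of -0.09 to 0.08 (adjusted p 0.968), in a fit that called 51.8% of all genes. Within the low set, where 45.4% of genes were called, it was -0.010, with an interval of -0.10 to 0.08. Without WT replicate 1 it was -0.20 (adjusted p 0.195), and EXT2 passed in none of these fits.

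EXTL3 (ENSG00000012232; chromosome 8, 28600469 to 28755599, plus strand), which starts the chain, had 4062, 4362, 4056 and 4181 in WT and 4533, 5044, 5087 and 4818 in EXT1-/- replicates 1 to 4. Every EXT1-/- library exceeded every WT library, by a modest margin, as for 16.3% of all genes. EXTL3 rose from 4165 ± 143 to 4870 ± 254 (SD, n = 4 each), which is 16.9% above WT, with a log2 fold change of 0.22 and a 95% interval of 0.10 to 0.35 (adjusted p 0.0140, limma). It was 0.25 with the library set as a term (adjusted p 0.000455) and 0.27 within the low set (adjusted p 0.00138). As stated above, the authors' deposited table does not pass it at an FDR of 0.05.

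EXTL2 (ENSG00000162694; chromosome 1, 100872372 to 100895998, minus strand), which can cap the linker, had 2429, 3483, 3528 and 3686 in WT and 2411, 3350, 3543 and 2371 in EXT1-/- replicates 1 to 4. The groups overlapped, and again the 3 libraries of the high set were the 3 lowest. The log2 fold change was -0.17 with a 95% interval of -0.57 to 0.23 (adjusted p 0.488, limma). With the library set as a term it was -0.04 with an interval of -0.12 to 0.04, and within the low set -0.05 with an interval of -0.15 to 0.05. EXTL2 therefore did not pass in any of these fits.

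EXTL1 (ENSG00000158008; chromosome 1, 26019884 to 26036464, plus strand) was barely expressed, at 1.39 CPM in WT and 1.97 CPM in EXT1-/- cells. Its counts were 51, 57, 60 and 49 in WT and 80, 66, 68 and 92 in EXT1-/- replicates 1 to 4. The groups did not overlap, which was so for 33.5% of all genes, and the highest 2 values were the EXT1-/- libraries of the high set. The mean rose from 54.2 ± 5.12 to 76.5 ± 12.04 (SD, n = 4 each), a log2 fold change of 0.48 with a 95% interval of 0.14 to 0.82 (adjusted p 0.0380, limma). The call was lost within the low set, where the log2 fold change was 0.28 with an interval of -0.14 to 0.69 (adjusted p 0.239), and with the replicate number as a block (adjusted p 0.0870). It was also lost without WT replicate 1, 2, 3 or 4 or EXT1-/- replicate 1 or 4, with adjusted p between 0.0530 and 0.0957.

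**Figure D2:**
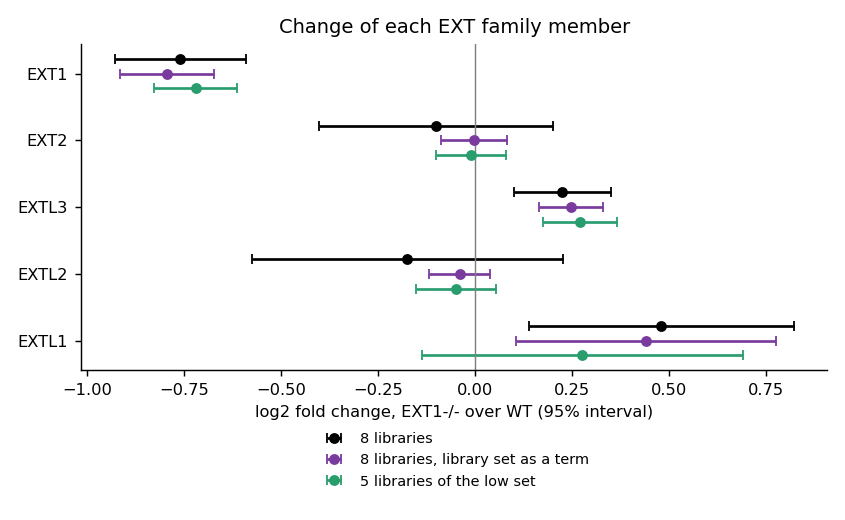
Log2 fold change of each member (horizontal axis, EXT1-/- over WT) with its 95% interval from limma in 3 fits: all 8 libraries, all 8 with the library set as a term, and the 5 libraries of the low set. EXT1 lies below 0 and EXTL3 above 0 in each fit, the EXT2 and EXTL2 intervals span 0 and narrow once the set is accounted for, and the EXTL1 interval reaches 0 within the low set.

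EXT2 and EXTL2 also shared the split between library sets, which the rule for choosing the genes did not use. Across both genotypes EXT2 was 2263 to 2477 in the high set and 3036 to 3180 in the low set, and EXTL2 was 2371 to 2429 and 3350 to 3686. The mean log2 difference between the sets was -0.39 for EXT2 and -0.55 for EXTL2, larger than the genotype difference of either. Such a split was not particular to these members. RAD21, a neighbour of EXT1, was 13408 to 14325 in the high set and 17125 to 18108 in the low set. With the library set as a term 51.8% of all genes were called between genotypes, against 32.0% without it. The share of all genes that split by set was not counted. EXTL3 had nearly equal means in the sets (4471 and 4546), but the sets differ in their mix of genotypes. Among EXT1-/- libraries EXTL3 was lower in the high set (4533 and 4818) than in the low set (5044 and 5087). In WT replicate 1 it was 4062, within the range of the other WT libraries (4056 to 4362). EXT1 showed no common direction, since its high-set libraries included the highest WT value and both the lowest and the highest EXT1-/- value. The sets were found from the data, so these differences carry no test, and the labels do not say what distinguishes the libraries.

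The ratio of EXT1 to another member within a library does not depend on how libraries are scaled, and sets EXT1 beside its relatives. EXT1 to EXT2 was 0.757, 0.471, 0.482 and 0.485 in WT and 0.393, 0.291, 0.296 and 0.396 in EXT1-/- replicates 1 to 4. The groups did not overlap, and within each genotype the high-set libraries had the higher ratios. The mean log2 ratio differed by -0.66 between the genotypes for EXT2, by -0.99 for EXTL3 and by -1.25 for EXTL1. For each of these 3 a two-sided exact permutation test gave p = 0.0286, the smallest that 4 against 4 libraries allow, and 0.0381 adjusted over the 4 ratios. For EXTL3 and EXTL1 this outcome was fixed by the counts above, so it is not separate evidence. There EXT1 was lower, and both of them higher, in every EXT1-/- library than in any WT library. The share of all genes whose ratio to EXT1 separates in this way was not counted. For EXTL2 the difference was -0.59 and the exact p 0.0571 (also 0.0571 adjusted), because EXT1-/- replicate 4 (0.413) lay above WT replicate 4 (0.409). Without WT replicate 1 that difference was -0.38 (exact p 0.114). Within the low set alone the EXT1 to EXTL2 ratio was 0.409 to 0.430 in WT and 0.258 to 0.267 in EXT1-/- libraries.

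**Figure D3:**
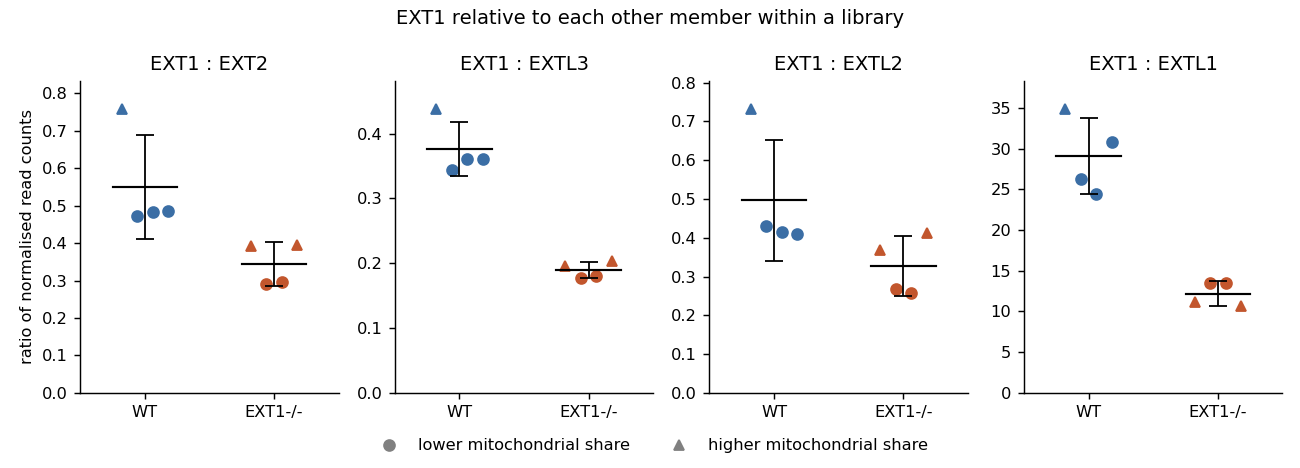
Ratio of EXT1 to each other member (vertical axes from 0, ratio of normalised read counts) in each library, with group mean and SD; triangles are the high set and circles the low set. The ratio is lower in every EXT1-/- library for EXT2, EXTL3 and EXTL1, and for EXTL2 a single EXT1-/- library of the high set (0.413) overlaps the WT libraries of the low set.

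Levels of different genes were compared as normalised read counts per kb of annotated exon. In WT the order was EXTL2 at 679 ± 119, EXT2 at 552 ± 72.9, EXTL3 at 315 ± 10.8, EXT1 at 188 ± 17.3 and EXTL1 at 11.96 ± 1.13 (SD, n = 4 each). The ranges of EXTL2 and EXT2 overlapped (502 to 763 and 444 to 602), whereas those of the other neighbours in this order did not. In EXT1-/- cells the order was the same, with 604 ± 127, 516 ± 79.8, 368 ± 19.2, 110 ± 5.00 and 16.9 ± 2.65. EXTL2 and EXT2 changed places when the longest annotated transcript was used as the length (823 and 845 in WT). Set against all genes with an exon length, averaged over the 8 libraries, EXTL2 stood at the 83.5th percentile, EXT2 at the 80.1st, EXTL3 at the 69.9th, EXT1 at the 49.0th and EXTL1 at the 7.59th.

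As a share of the 5 members summed per kb of exon, EXT1 made up 10.9 ± 2.34% in WT and 6.94 ± 1.07% in EXT1-/- cells (SD, n = 4 each). WT replicate 1 was at 14.4% and the other 3 WT libraries at 9.75 to 9.77%. EXTL3 made up 18.2 ± 1.78% and 23.0 ± 2.04%, EXT2 31.5 ± 1.09% and 31.9 ± 0.841%, and EXTL2 38.7 ± 3.22% and 37.1 ± 2.99%. EXTL1 accounted for 0.689 ± 0.0794% and 1.07 ± 0.297%. The shares depend on the length correction: without it EXTL3, which has the longest exons in sum, took the largest share of the family's counts, 34.9% in WT and 42.5% in EXT1-/- cells, ahead of EXTL2 (27.2% and 25.2%) and EXT2 (24.3% and 23.6%). The sum of the 5 was 1745 ± 180 in WT and 1616 ± 219 counts per kb in EXT1-/- cells, a difference smaller than the spread between libraries. EXT1 was thus the least abundant member apart from EXTL1 on this scale already in WT cells.

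Genes whose pattern over the 8 libraries was most like that of each member were named by the root mean square difference of their centred log2 values. Libraries of both genotypes enter this measure, so such genes share the genotype difference of their member by construction. Their direction and calls are given as description only. For EXT1 these were HMCN1 (0.0504), LEMD1 (0.0573) and NLGN4X (0.0583), all lower in EXT1-/- cells, with log2 fold changes of -0.71, -0.71 and -0.78. For EXT2 they were USP14, GDAP1 and FOCAD (0.0280 to 0.0361), and for EXTL2 AIMP1, COPS5 and SLC25A30 (0.0177 to 0.0290), none of which passed the test between genotypes. For EXTL3 they were WDR6 (0.0260) and NAA40 (0.0287), and for EXTL1 TMEM158, TBKBP1 and NDUFS6 (0.0587 to 0.0672), each of them higher in EXT1-/- cells. Among the members themselves the closest pair was EXT2 and EXTL2 (0.0935), and 624 other genes were closer to EXT2 than EXTL2 was. EXT1 and EXT2 lay 0.415 apart.

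The genes next to each member were read to see whether a change reached beyond the gene itself. Of the 10 measured genes nearest to EXT1, the farthest 1445 kb away, 3 were higher, 2 were lower and 5 did not pass, where 32.0% of all genes were called. All 5 calls lay on the side of EXT1's own promoter and went in both directions, and whether they relate to the edit was not tested. SAMD12, the nearest at 77.6 kb, fell from 468.8 ± 29.6 to 349.5 ± 51.2 (SD, n = 4 each, with a log2 fold change of -0.43 and adjusted p 0.0135, limma), and -0.35 within the low set did not pass (adjusted p 0.0608). Farther out, TNFRSF11B, the decoy receptor osteoprotegerin, was higher by 1.90 on the log2 scale, NOV by 1.06 and ENPP2, which encodes autotaxin, by 2.24, and MAL2 fell by 0.57. On the other side MED30, AARD, RAD21, UTP23 and EIF3H had log2 fold changes between -0.17 and 0.18 and did not pass, although EIF3H (-0.08, adjusted p 0.0323) and RAD21 (0.07, adjusted p 0.0446) did with the library set as a term.

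**Figure D4:**
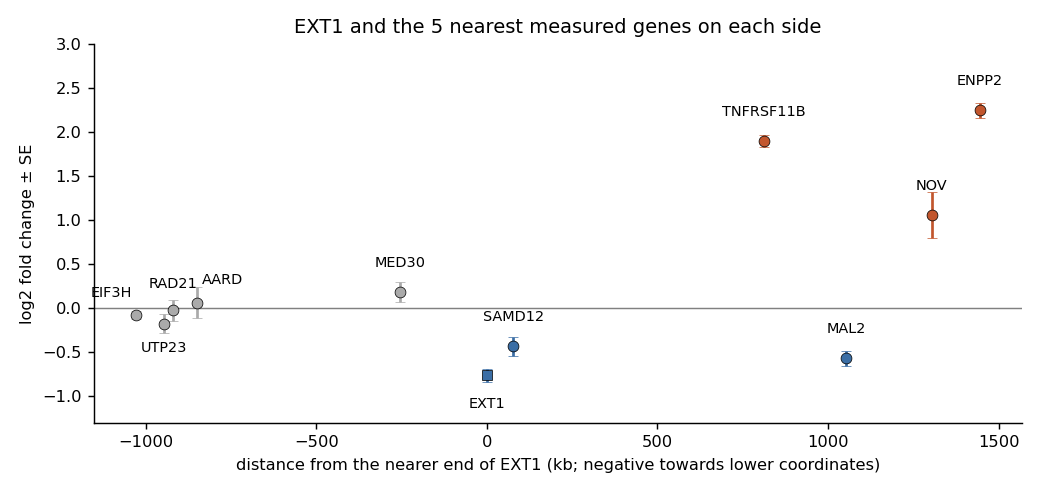
Log2 fold change with SE (vertical axis) of EXT1 (square) and the 5 nearest measured genes on each side, against distance from the nearer end of EXT1 in kb; red is higher, blue lower and grey not past the test. The 5 genes at lower coordinates lie near 0, and the 5 at higher coordinates range from -0.57 (MAL2) to 2.24 (ENPP2).

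Near the other members, ACCS, 11.33 kb from EXT2, rose by 0.54 (log2) while CD82 on its other side fell by 0.78. Neither neighbour of EXTL3, FZD3 (-0.18) or INTS9 (-0.026), passed, although FZD3 did without WT replicate 1 (-0.26, adjusted p 0.0425). SLC30A7 begins, on the other strand, 78 bases from the outermost start that GENCODE gives EXTL2. The EXTL2 window printed above lies farther inside the gene. The log2 fold change of SLC30A7 (-0.26, adjusted p 0.155) did not pass, but -0.17 did with the library set as a term (adjusted p 0.0128), unlike EXTL2. CDC14A on the far side of EXTL2 fell by 0.41. PAFAH2 next to EXTL1 fell by 0.27, and PDIK1L (0.12, adjusted p 0.569) did not pass, except for the low-set fit (0.34, adjusted p 0.00668) and the fit with the library set as a term (0.23, adjusted p 0.0286). GENCODE places 1 antisense gene over EXTL3 and 1 over EXTL2, neither in the table. The kit keeps the strand, but whether the counting used it is not given in the sources used here.

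The other genes of heparan sulfate assembly were read from 6 lists with 69 genes, 62 of which were in the table. Of these 12 were higher, 13 lower and 37 did not pass, so 40.3% were called against 32.0% of all genes. Each list is to be read against the shares over all genes, 15.2% called higher and 16.8% called lower. In the linkage region, the tetrasaccharide that joins the chain to its protein, 1 of 7 genes was higher and none lower (median log2 fold change 0.17, and 0.074 within the low set). XYLT1, which adds the first xylose, rose from 698 ± 28.5 to 1022 ± 28.6 (SD, n = 4 each, with a log2 fold change of 0.55 and adjusted p 0.000112, limma). FAM20B, the kinase that phosphorylates that xylose, was the most abundant per kb and had a log2 fold change of 0.05 (adjusted p 0.530).

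Of 12 measured genes that modify the chain, 3 were higher and 3 lower (median 0.13, low set 0.050). HS6ST2, a 6-O-sulfotransferase, was lower by 1.59 on the log2 scale, while GLCE, the epimerase that turns glucuronic into iduronic acid, was higher by 0.58 and HS3ST3B1, a 3-O-sulfotransferase, by 0.57. NDST1, which replaces acetyl by sulfate groups and was the most abundant per kb, went from 5189 ± 365 to 5524 ± 280 (SD, n = 4 each) and did not pass (adjusted p 0.320). Chondroitin sulfate grows on the same linker, and of its 4 measured polymerisation genes 1 was higher and 1 lower (median 0.20, low set 0.097). The chondroitin synthase CHSY1 fell from 2823 ± 50.9 to 2066 ± 72.3 and its relative CHPF2 rose from 545 ± 17.5 to 641 ± 29.7, with a log2 fold change of 0.23. That call was lost without WT replicate 2 (0.24, adjusted p 0.0508) or WT replicate 4 (0.21, adjusted p 0.0523) and with the replicate number as a block (adjusted p 0.0507).

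The genes that make and carry the sugar and sulfate donors were lower in 5 of 15 cases and higher in 1 (median -0.21, and -0.10 within the low set). Over all genes 16.8% were called lower and 15.2% higher. UGP2, which makes UDP-glucose, the source of UDP-glucuronic acid, fell from 19033 ± 600 to 11272 ± 1232 (SD, n = 4 each, with a log2 fold change of -0.76 and adjusted p 0.000154, limma). PAPSS1, which makes the sulfate donor PAPS, fell by 0.27 on the log2 scale. Of 12 core protein genes 5 were higher and 2 lower (median 0.11, low set 0.0042). The syndecan SDC1 rose by 0.59 and the glypican GPC3 by 0.72, whereas GPC6 fell from 3837 ± 107 to 2132 ± 146. The most abundant of them per kb, GPC4, had a log2 fold change of -0.12 (adjusted p 0.140), and passed with the library set as a term (-0.13, adjusted p 0.0312). Among 12 Golgi residents, the compartment in which the EXT proteins work, 1 was higher (MGAT1, 0.30) and 2 lower (TMED2, -0.36, and TMED10, -0.19), with a median of 0.023 (low set 0.015). The call of MGAT1 was lost without WT replicate 2 or 4 or EXT1-/- replicate 1 (adjusted p 0.0638 to 0.0699), and that of TMED10 without WT replicate 2, 3 or 4 or EXT1-/- replicate 1 or 4 (0.0590 to 0.0750).

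**Figure D5:**
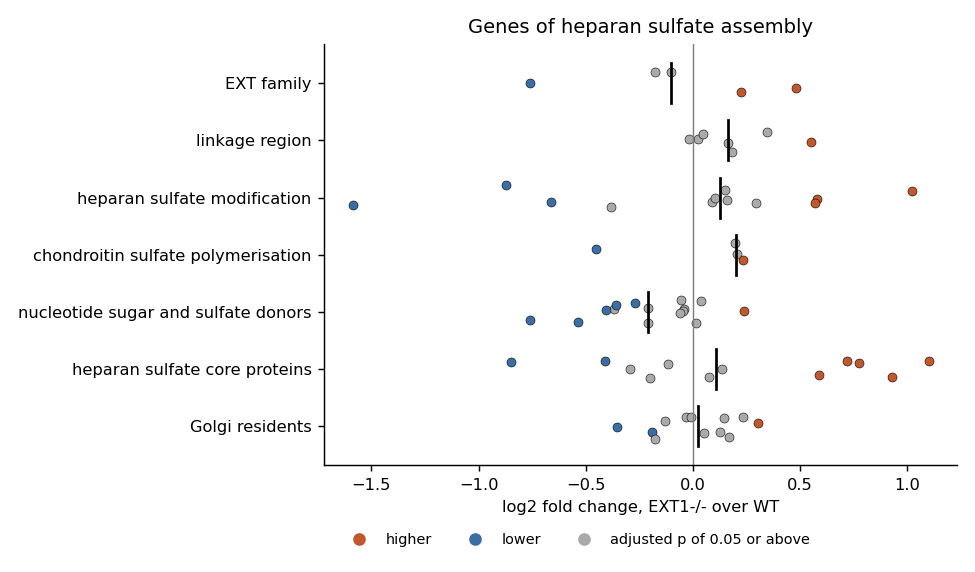
Log2 fold change (horizontal axis, EXT1-/- over WT) of each measured gene in the EXT family and 6 lists of heparan sulfate assembly, 1 point per gene, with the list median as a bar; red is higher, blue lower and grey not past an adjusted p of 0.05. Medians lie between -0.21 (donors) and 0.20 (chondroitin sulfate polymerisation).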

How the data were processed

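Total RNA libraries were made with a stranded kit, per the labels' protocols. STAR, RSEM, edgeR and the build GRCh38.p10 are named in the submitters' processing notes, without versions. The authors deposited 1 table with a signal per library (whole numbers, here called normalised read counts) and their own log2 fold change, log2 CPM, likelihood ratio score, p-value and FDR. The signal is not raw counts: TMM-scaled library sizes computed here were all within 38891466 to 38902443. Count models such as edgeR were therefore not run. Only among the alternatives was limma-voom, a method made for counts, applied to these normalised values.

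Groups and replicate numbers come from the sample titles. Values were tested as log2(value + 1) with limma 3.58.1 (R 4.3.3), the intensity trend on and no covariate besides genotype, adjusting p by Benjamini-Hochberg across 15811 genes (threshold 0.05); a required mean of 1 in either group removed none. Fold changes on this scale understate those of low genes. Single values were tested by two-sided exact permutation over libraries (scipy 1.17.1). Coordinates and exon lengths are from GENCODE 29, to which 15777 genes (99.8%) matched by identifier. No 2 libraries of a group agreed within sampling noise (chi-square per degree of freedom at least 4.42). The fit was also run on simulated counts with 200 changed genes, far fewer than were called here. That run therefore does not show how the fit performs on these data.

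The members and lists were chosen with earlier results of these data known. Besides the members, the text names, per list, up to 3 called genes with the smallest adjusted p and the most abundant per kb; the 3 most alike genes per member (mean of at least 100); and the nearest measured gene on each side (5 for EXT1). Of the genes this rule names, 2 are not reported here. The alternatives changed the scaling, the low-value filter, the pseudocount or the test, added a replicate block, took the library set as a term or the low set alone, removed a length trend, or left out each library.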

Additional observations from a re-analysis of the deposited data

Results flagged for a closer look

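In groups of 4 libraries, the gap between an extreme library and its nearest neighbour was compared with the range of the group. Of 130 groups checked, 19 had a gap above Dixon's critical value, where chance gives about 1 in 20, and 15 of the 19 pointed to WT replicate 1, the only WT library of the high set. Among the members, WT replicate 1 stood apart for EXT1 (1776), EXTL2 (2429), the EXT1 to EXT2 ratio (0.757), the EXT1 to EXTL2 ratio (0.731) and the EXT1 share of the family per kb (14.4%). It was also apart for COPS5 (1543), FOCAD (2154), GPC3 (2352), HMCN1 (2077), HS6ST2 (490), INTS9 (932), NLGN4X (7189), RAD21 (13408), SLC25A30 (563) and USP14 (4860). Several of these genes were named for resembling a member over the same libraries, so they are not separate evidence. EXT1-/- replicate 4, of the high set, stood apart for PAFAH2 (706), SDC1 (2505) and TMEM158 (614), and WT replicate 3 for NDUFS6 (1701). What sets these libraries apart was not tested.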

How the results depend on the processing

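EXT1 stayed lower and EXTL3 higher past the threshold in each of 20 alternatives, with log2 fold changes of -0.79 to -0.70 and 0.20 to 0.27, and EXT2 (-0.20 to -0.00) and EXTL2 (-0.31 to -0.04) passed in none. EXTL1 passed in 11 of 19 alternatives and was left out by the filter of 5 CPM in 4 libraries: it was not called with the replicate block (0.48, adjusted p 0.0870), within the low set (0.28) or in 6 of 8 fits without 1 library (0.39 to 0.53 in those 6, and up to 0.55 in all 8). The cause was not tested. Differences in the log2 ratio of EXT1 to EXT2, EXTL3 and EXTL1 were -0.71, -0.99 and -1.002 within the low set, and -0.73 to -0.50, -1.03 to -0.91 and -1.33 to -1.16 with 1 library left out, and for EXTL2 -0.67 and -0.71 to -0.38; with so few libraries the smallest exact p is 0.2 and 0.0571, so these could not pass. The count of called genes over the table was 8195 with the library set as a term, and 3721 to 6041 with 1 library left out; pathway calls ranged from 18 to 31 there. The EXT1 share of the family was 8.09% in WT and 5.03% in EXT1-/- cells by the longest transcript. Without length correction it was 13.2% in WT and 8.07% in EXT1-/- cells.

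The replicate block ended the calls of EXTL1 and CHPF2 (0.23, adjusted p 0.0507), changed no other call of a named gene and left 4934 genes called. Deviations of same-numbered libraries correlated at 0.783, 0.438, 0.260 and -0.654 for numbers 1 to 4. The sign followed the library sets, since only number 4 joins a low-set with a high-set library. These correlations therefore cannot decide whether the numbers pair the libraries. Of 51 other named genes, 36 kept call and direction in each alternative. Signs turned only for genes that had not passed with all 8 libraries. With the library set as a term these were FOCAD (0.037), RAD21 (0.068) and USP14 (0.010), and within the low set AARD (-0.042), FOCAD (0.066) and RAD21 (0.062). With 1 library left out AARD ranged from -0.059 to 0.16, FOCAD from -0.16 to 0.028, INTS9 from -0.061 to 0.063 and RAD21 from -0.11 to 0.043.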
